A study of Mus musculus with 4 samples.

Results

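The comparison described here is that of the APOE4 brain with the APOE3 brain without an inflammatory challenge. It used 25524 single-cell barcodes that could be given a cell class, out of 74993 barcodes deposited for the whole series. The mice were male and carried the human APOE3 or APOE4 gene in place of the mouse gene, by targeted replacement, on both chromosomes (labelled APOE33 and APOE44). Brain tissue of 3 mice per group was made into a suspension enriched for glia, and 1 droplet library of 3′ transcript ends was sequenced per group. The baseline libraries came from mice given NaCl. The other 2 libraries of the series, from mice of the same genotypes killed 24 h after 5 mg/kg of lipopolysaccharide (LPS, a bacterial endotoxin) was injected into the abdomen, served only as a second pair of genotypes beside the values of the first.

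Apolipoprotein E is a lipid carrier that astrocytes secrete and that cells take up through receptors of the LDL receptor family. Microglia also make it when activated. Its human isoforms differ in how they bind lipids and receptors, and APOE4 is the common isoform that raises the risk of late-onset Alzheimer's disease.

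With 1 library per genotype there was no replicate check and no test was made. Each difference is therefore between 2 libraries, and genotype cannot be told apart from anything else that differed between the 2 groups of mice or their preparation. The values are UMIs (counted transcript molecules) summed over the barcodes of a class, given per 1000000 UMIs of that class (CPM). Brackets hold 95% exact binomial intervals, which cover counting error only.

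The APOE3 library held 15432 barcodes and 78513245 UMIs, and the APOE4 library 14122 barcodes and 73288965 UMIs. Of these, 14572 (94.4%) and 13252 (93.8%) barcodes passed the filter of at least 1000 UMIs and at most 20% of mitochondrial UMIs. A class was given where at least 3 of the 4 genes of 1 of 7 marker sets were detected, the set with the most UMIs deciding, which left 13383 APOE3 and 12141 APOE4 barcodes. The rule was met for more than 1 set by 9.52% of the passing APOE3 barcodes and 8.37% of the APOE4 barcodes, and the doublet caller Scrublet marked 9.43% and 8.19%. These barcodes were kept. The libraries shared 61 barcodes.

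Astrocytes were the most frequent class, at 32.1% [31.4 to 32.9] of the passing APOE3 barcodes (4683) and 29.8% [29.1 to 30.6] of the APOE4 barcodes (3953). Microglia, which are macrophages of brain tissue, took 26.9% (3918) and 26.4% (3505). Oligodendrocytes, which make myelin, made up 18.6% [17.9 to 19.2] (2706) and 22% [21.3 to 22.7] (2909). Endothelial cells, the lining of the vessels, made up 8.15% [7.71 to 8.60] (1187) and 5.58% [5.2 to 5.99] (740). Epithelial cells of the choroid plexus, the source of cerebrospinal fluid, made up 3.29% (480) and 4.04% (535), and neurons 2.41% (351) and 3.41% (452). Fibroblasts, at 58 and 47 barcodes, were not compared. The share of barcodes was thus higher in the APOE4 library for oligodendrocytes, choroid cells and neurons, and lower for astrocytes and endothelial cells. How much of each share reflects tissue dissociation was not tested. The median UMIs per barcode were 3617 and 3921 in astrocytes, while endothelial cells had 4275 in APOE3 and 3196 in APOE4, and neurons 6378 and 8314.

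The class names were checked with marker genes that the rule did not use. The 12 further astrocyte markers summed to 19324 CPM in the APOE3 and 20926 CPM in the APOE4 astrocytes, against at most 3794 CPM in any other class. Microglial markers summed to 20203 and 21461 CPM in microglia and at most 514 CPM elsewhere. Endothelial markers summed to 12226 and 13977 CPM in their class and at most 357 CPM elsewhere. Choroid plexus markers, among them the thyroxine carrier Ttr, summed to 298782 and 339700 CPM in choroid cells. Up to 6089 CPM of them was found in other classes, and Ttr was counted in all 6 classes.

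A gene was measured in a class when the 2 libraries together held at least 100 of its UMIs there. In 5 of the 6 classes compared, few genes lay at least 1.5-fold apart. In astrocytes 90 of 13660 genes (0.659%) were at least 1.5-fold higher in the APOE4 library and 791 (5.79%) lower. In microglia 228 of 12656 genes (1.8%) were higher and 191 (1.51%) lower. Without barcodes meeting more than 1 marker set 133 were higher, and without the Scrublet calls 126 were lower. In oligodendrocytes the counts were 113 of 11241 genes (1.01%) higher and 205 (1.82%) lower, and 136 and 114 were lower without the same 2 sets of barcodes in turn. In endothelial cells 84 of 10166 genes (0.826%) were higher and 368 (3.62%) lower. This split was 220 higher and 495 lower when every barcode counted equally, and without barcodes meeting more than 1 marker set 148 genes were lower. In neurons 213 of 9754 genes (2.18%) were higher and 282 (2.89%) lower. Choroid plexus cells stood apart, with 79 of 7593 genes (1.04%) higher and 2982 (39.3%) lower. The median log2 ratio of all choroid genes was -0.42, whereas it lay between -0.04 and -0.02 in the other classes. With ratios centred on that median, 1342 choroid genes were higher and 1079 lower.

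**Figure D1:**
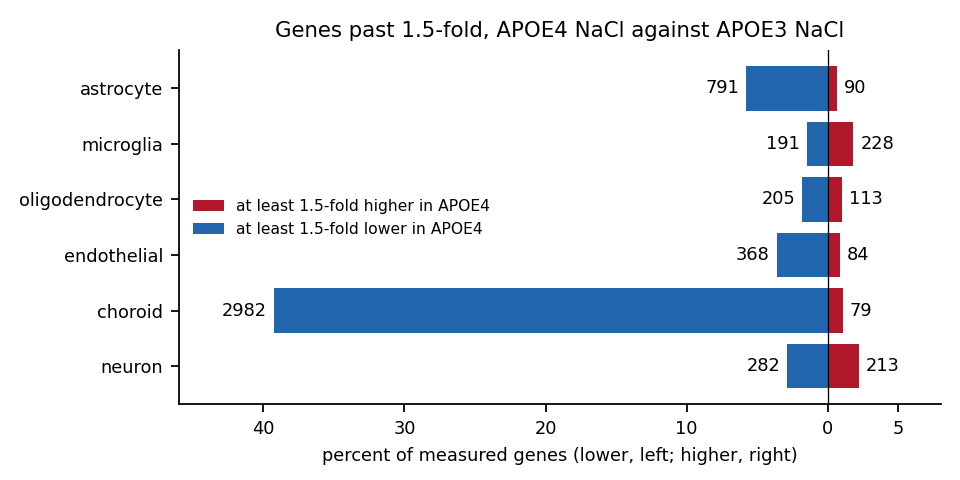
Percent of the measured genes of each cell class that were at least 1.5-fold lower (bars to the left) or higher (bars to the right) in the APOE4 NaCl library than in the APOE3 NaCl library, with the number of genes beside each bar. The choroid class has 2982 lower genes, against 191 to 791 in the other classes.

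Differences common to the classes were few. A gene counted as shared when it was measured in at least 4 classes, lay at least 1.2-fold on the same side in each of them and had a median of at least 1.3-fold. Of 10095 genes that could meet this, 8 (0.0792%) were higher and 22 (0.218%) lower in the APOE4 library. In the LPS pair, 4.16% of 10142 genes had a median at least 1.3-fold higher and 1.51% a median at least 1.3-fold lower. These LPS shares rest on the median alone, without the limit for each class, so they cannot be set against the shares of shared genes.

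The 8 shared higher genes, in order of their median fold, were Cox8b (2.17-fold), Nrgn (1.86-fold), Cck (1.53-fold), Hspa1a (1.52-fold), Ak5 (1.51-fold), Nr4a2 (1.49-fold), Ppp1r14a (1.35-fold) and Vsnl1 (1.3-fold). None of them was broadly expressed. In each, the class with the lowest level stood below 10% of the class with the highest. Nrgn, the postsynaptic calmodulin-binding protein neurogranin, and Cck, a neuropeptide, were highest in neurons, as were Vsnl1, a neuronal calcium sensor, and Ak5, an adenylate kinase of neurons. Without barcodes meeting more than 1 marker set, Hspa1a and Nrgn alone among the 8 still met the shared rule, and without the Scrublet calls Cck and Nrgn alone. Cox8b, Ak5, Nr4a2, Ppp1r14a and Vsnl1 thus met it under neither. The median log2 ratio of Nr4a2 was 0.57 as analysed and 1.26 without barcodes meeting more than 1 set.

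Nrgn was measured in 5 classes. Its level was 1243 CPM in APOE3 neurons and 1718 CPM in APOE4 neurons. It was 12 and 22.3 CPM in astrocytes, 9.51 and 19.6 CPM in microglia, 6.75 and 13.7 CPM in oligodendrocytes, and 16.8 and 22.5 CPM in endothelial cells. The fold in the glial classes, 1.86 [1.58 to 2.18] to 2.06 [1.72 to 2.46], exceeded the 1.38-fold [1.33 to 1.44] in neurons. Neurons also held a larger share of the APOE4 barcodes, and whether neuronal RNA in other droplets took part in the glial values was not tested. In the LPS pair Nrgn had a median log2 ratio of -0.03 and was higher in 2 of 5 classes.

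Cox8b encodes a subunit of cytochrome c oxidase that is best known from muscle and brown fat. Choroid plexus cells had by far the most, 430 CPM in APOE3 and 863 CPM in APOE4 (2.01-fold [1.91 to 2.11]). In astrocytes 144 UMIs were counted in APOE3 and 328 in APOE4 (2.62-fold [2.15 to 3.21]), in microglia 142 and 259, and in oligodendrocytes 49 and 131. In oligodendrocytes 1 barcode held 40.8% of the APOE3 UMIs of the gene. The LPS pair had a median log2 ratio of 0.20, with Cox8b higher in 3 of 5 classes.

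Ppp1r14a, an inhibitor of myosin phosphatase, was measured in all 6 classes. Oligodendrocytes carried most of it, at 939 CPM in APOE3 and 1227 CPM in APOE4 (1.31-fold [1.28 to 1.34]). The other classes held 13.2 to 45.3 CPM in APOE3 and 19.9 to 60.0 CPM in APOE4. It was the only shared higher gene that was also higher in each class measured in the LPS pair (4 of 4, median log2 0.44).

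Hspa1a, an inducible HSP70 chaperone, was likewise higher in 6 of 6 classes. Microglia and endothelial cells held the most. The level was 104 CPM in APOE3 and 148 CPM in APOE4 microglia (1.42-fold [1.34 to 1.51]), and 87.6 and 147 CPM in endothelial cells (1.68-fold [1.5 to 1.88]). In oligodendrocytes it was 18.3 and 41.1 CPM (2.24-fold [1.95 to 2.58]). Astrocytes, choroid cells and neurons held 6.64 to 10.4 CPM in APOE3 and 9.59 to 16.6 CPM in APOE4, and the choroid interval included 1. Hspa1b is a neighbouring, nearly identical copy, so how reads were divided between the 2 genes is uncertain. It was higher in 4 of the 5 classes in which it was measured, while astrocytes had 11.7 and 11.3 CPM. In the LPS pair Hspa1a was lower in 3 of 4 classes (median log2 -0.42).

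Because heat-inducible genes carry a factor's recognition sequence just upstream of their start, the 250 bases before the Hspa1a start are shown, from RefSeq for the build GRCm38.p6 (chr17:34972157-34972406, minus strand, 5′ to 3′). Capitals mark the match to GAANNTTC, a facing pair of the GAA units of which heat shock elements are built. The pattern, though not the matched bases, reads alike on both strands.
Hspa1a: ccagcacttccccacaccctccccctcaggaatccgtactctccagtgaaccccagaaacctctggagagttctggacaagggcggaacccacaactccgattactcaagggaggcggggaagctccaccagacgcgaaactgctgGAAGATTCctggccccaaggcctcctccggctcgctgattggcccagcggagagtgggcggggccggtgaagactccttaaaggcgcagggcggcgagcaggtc
The match begins 104 bases before the start. The same window of Hspa1b differs at 3 of 250 positions and also holds 1 match. The motif is in 6.69% of 32851 promoter windows of this length. It is in 1 of the 7 windows found for the shared higher genes, that of Hspa1a itself, and in 0 of the 11 found for the shared lower genes.

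Of the 22 shared lower genes, 8 were broadly expressed. Breadth was not counted over all genes tested, so this count and that of the shared higher genes have no share to stand beside. By far the largest difference was in Gm47283, a protein-coding model at the end of the Y chromosome (chrY:90784738-90816464, build mm10). The APOE3 library held 1595 of its UMIs in astrocytes and the APOE4 library 120 (11.6-fold lower [9.60 to 14.0]). The counts were 1142 and 150 in microglia (6.97-fold lower), 664 and 112 in oligodendrocytes (6.75-fold lower), 318 and 14 in endothelial cells (10.5-fold lower), 107 and 6 in choroid cells (18.3-fold lower), and 315 and 56 in neurons (9.05-fold lower). In every class the APOE4 level stayed at or below 11.3 CPM and the APOE3 level at or above 20.4 CPM. No barcode held more than 6.54% of the APOE3 UMIs of a class. The gene was also lower in the APOE4 library in 5 of 5 classes of the LPS pair (median log2 -1.71).

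The remaining shared lower genes differed far less, and most did not meet the shared rule without the barcodes that may be doublets. Without barcodes meeting more than 1 marker set, 5 of the 22 still met it. They were AI506816, Gm47283, Gm28370, Gm38505 and Wdfy1, of which the last 3 lie outside the naming rule and were chosen after their values were seen. Without the Scrublet calls 5 of the 22 met it, with Zic1 in place of Gm38505. Sox9, Otx2os1, Sulf1, Peg3, Peg10, Plce1, Foxj1 and Dnah6, described next, met it under neither. Sox9, a transcription factor of astrocytes and of choroid plexus epithelium, was lower in 6 of 6 classes. It had 862 CPM in APOE3 and 617 CPM in APOE4 astrocytes (1.40-fold lower [1.37 to 1.43]), 278 and 138 CPM in choroid cells (2.01-fold lower [1.84 to 2.20]), and 22.9 to 52.3 CPM against 16.9 to 35.7 CPM in the other classes. In the LPS pair it was higher in 6 of 6 classes (median log2 0.80). Zic1 and Otx2os1 are a patterning factor and a non-coding neighbour of the patterning gene Otx2. Zic1 was 1.71-fold and Otx2os1 2.24-fold lower in the median. Whether the counting used strand is not given in the sources used here, so Otx2os1 and the antisense models Gm11149 and 4930511M06Rik are uncertain. Zic1 had 59.7 CPM in APOE3 and 16.4 CPM in APOE4 neurons (3.63-fold lower [2.78 to 4.78]) and 25.7 and 15.5 CPM in astrocytes. Sulf1, an extracellular heparan sulfatase, was 1.73-fold lower in the median, and choroid cells held most of it (531 and 298 CPM). The imprinted genes Peg3 (6 classes, 1.47-fold) and Peg10 (4 classes, 1.57-fold) were both lower, as was Plce1, a phospholipase (6 classes, 1.52-fold), whose median log2 ratio of -0.60 was -0.35 without barcodes meeting more than 1 set. Foxj1 and Dnah6, genes of motile cilia, were highest in astrocyte barcodes, where ependymal markers also differed, and their medians were 1.52-fold and 1.63-fold lower. Without the astrocyte barcodes that held 2 or more ependymal markers neither met the shared rule. Their median log2 ratios went from -0.61 to -0.43 and from -0.71 to -0.42, and that of Foxj1 in astrocytes was 0.04. AI506816, a transcript with no coding annotation, was 1.68-fold lower in the median of 4 classes.

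Of the shared genes, 5 higher and 18 lower ones were measured in at least 4 classes of the LPS pair. The LPS median lay past 1.3-fold on the same side for 1 higher gene, Ppp1r14a, and for 2 lower genes, Gm47283 and Gm38505. It lay past 1.3-fold on the other side for Hspa1a, Sox9 and AI506816.

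**Figure D2:**
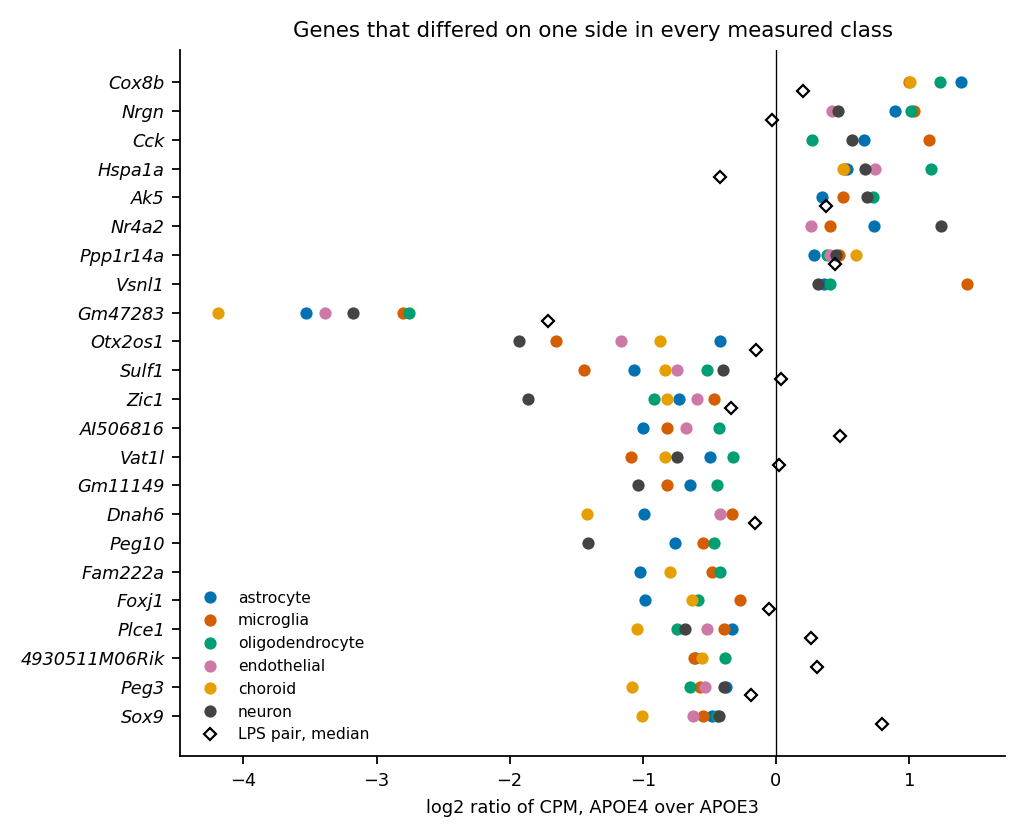
Log2 ratio of CPM, APOE4 NaCl over APOE3 NaCl, in each class in which a gene was measured (coloured points), for the 8 shared higher genes and the first 15 shared lower genes by median, with the median of the LPS pair where at least 4 classes were measured (open diamonds). Gm47283 lies between -4.19 and -2.76 in the NaCl pair, apart from all others, and the diamond of Sox9 lies at 0.80, opposite to its points.

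Eif2s3y, Ddx3y, Uty and Kdm5d, also assigned to the Y chromosome, did not follow Gm47283. Whether Gm47283 is specific to the Y chromosome was not tested. Eif2s3y, a translation initiation factor subunit, was higher in the APOE4 library in 5 of 6 classes. Its level was 104 and 164 CPM in astrocytes (1.57-fold [1.49 to 1.66]), 48.4 and 75.7 CPM in microglia (1.56-fold), 66.3 and 102 CPM in oligodendrocytes (1.54-fold), 54.6 and 68.7 CPM in endothelial cells, and 86.1 and 103 CPM in neurons. Choroid cells had 16.8 and 16.2 CPM, within counting error. In the LPS pair it was higher in 5 of 5 classes, by log2 0.39 to 0.76. Ddx3y, an RNA helicase, had 127 and 126 CPM in astrocytes, and Uty, a histone demethylase, 146 and 140 CPM. Outside choroid cells the log2 ratios of Ddx3y, Uty and the demethylase gene Kdm5d lay between -0.13 and 0.24. In choroid cells Ddx3y was 1.63-fold, Uty 1.93-fold and Kdm5d 1.5-fold lower, as were many genes of that class. Xist, the RNA of the inactive X chromosome, had at most 8 UMIs in any class of either library.

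**Figure D3:**
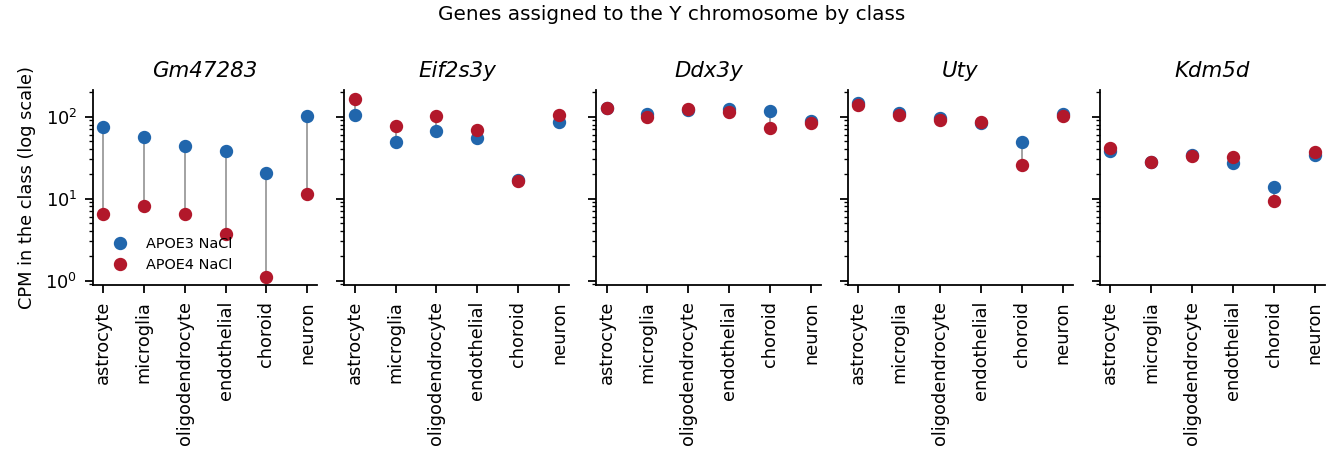
CPM on a log scale of 5 genes assigned to the Y chromosome in each cell class of the APOE3 NaCl library (blue) and the APOE4 NaCl library (red), joined by a line. Gm47283 is lower in APOE4 in all 6 classes, Eif2s3y is higher in 5 of 6, and the other 3 genes lie close together outside the choroid class.

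Reads were assigned to the mouse genome, so the counts for Apoe are of sequence that matched the mouse gene, and expression of the human gene was not measured. Apoe had 257 CPM in APOE3 and 242 CPM in APOE4 astrocytes, 29.1 and 25.0 CPM in microglia, and 42.4 and 49.0 CPM in choroid cells. Its log2 ratio lay between -0.30 and 0.21 over the 6 classes. Of the 80 genes nearest to Apoe on chromosome 7, 40 on each side, 13 to 29 were measured per class, and their median log2 ratio lay between -0.06 and 0.17. In astrocytes 1 of 29 was lower past 1.5-fold and 0 were higher, against 5.79% and 0.659% of all astrocyte genes.

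A pair of genes chosen after their values were seen came close to the shared rule and differed alike in the LPS pair. Ndufa3, a subunit of respiratory complex I on chromosome 7, was higher in 5 of 6 classes, from 129 to 169 CPM in microglia (1.31-fold [1.24 to 1.38]) to 527 and 860.5 CPM in choroid cells (1.63-fold [1.56 to 1.71]). Neurons had 173 and 171 CPM. It was higher in 6 of 6 classes of the LPS pair, by log2 0.44 to 0.82. Nbas, a protein of transport between Golgi and endoplasmic reticulum, had 111 and 79.6 CPM in astrocytes (1.39-fold lower) and 132 and 80.8 CPM in neurons (1.63-fold lower). Its log2 ratio was below 0 in 6 of 6 classes of both pairs, although in oligodendrocytes it was only -0.04.

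Differences of a single class were defined as at least 1.5-fold in that class and less than 1.2-fold in each of at least 3 others. Over all classes 70 genes were higher and 1591 lower in this way, and choroid cells gave 1457 of the lower ones. With ratios centred on the class median the totals were 605 higher and 623 lower. Astrocytes gave 0 higher and 22 lower genes, microglia 10 and 5, oligodendrocytes 7 and 12, endothelial cells 17 and 51, and neurons 22 and 44.

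In astrocytes, genes known from reactive astrocytes differed in opposite directions. Gfap, the intermediate filament protein of astrocytes, had 129 CPM in APOE3 and 50.2 CPM in APOE4 (2.57-fold lower [2.39 to 2.77]). Serpina3n, a secreted protease inhibitor, had 12.5 and 44.2 CPM (3.54-fold higher [3.08 to 4.09]). No barcode held more than 4.94% of the UMIs of either gene. Of 11 measured genes of the pan-reactive list 2 were at least 1.5-fold higher and 4 lower, against 0.659% and 5.79% of all astrocyte genes. The other higher one was Lcn2, with 6 and 140 UMIs, of which 94.3% in APOE4 came from 1 barcode. Serpina3n was also higher in oligodendrocytes (32.4 and 63.6 CPM, 1.96-fold [1.76 to 2.19]) and neurons (14.7 and 26.7 CPM, 1.82-fold [1.29 to 2.62]), and in the LPS pair it was higher in the 4 classes measured at baseline. Gfap in the LPS astrocytes was higher in the APOE4 library (log2 0.54).

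All 24 genes of cholesterol synthesis measured in astrocytes lay above the median of the class, with a median log2 ratio of 0.30 against -0.04 for all astrocyte genes, although 0 of them reached 1.5-fold. Idi1, the isopentenyl diphosphate isomerase, had 80.4 and 115 CPM (1.42-fold [1.34 to 1.52]), and Fdps, the farnesyl diphosphate synthase, 48.5 and 66.9 CPM (1.38-fold [1.27 to 1.5]). The sterol reductase Tm7sf2 was 1.42-fold and Hsd17b7 1.33-fold higher. The list's median in the other classes lay between -0.40 in choroid cells and 0.07 in oligodendrocytes, and in the LPS astrocytes it was 0.26.

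Of 25 interferon-stimulated genes measured in astrocytes, 9 were lower past 1.5-fold in APOE4 and 0 higher, against 5.79% and 0.659% of all astrocyte genes. The list's median log2 ratio was -0.37. The chemokine gene Cxcl10 had 120 and 8 UMIs (13.1-fold lower [6.42 to 30.9]), of which 29.2% in APOE3 came from 1 barcode. Ifit1 had 246 and 52 UMIs (4.12-fold lower), Oasl2 189 and 51 (3.23-fold lower) and the ubiquitin-like Isg15 117 and 39 (2.61-fold lower). These are low levels, of 11.7 CPM or less in APOE3. With every barcode counted equally Isg15 had a log2 ratio of -0.46, and that of Ifit1 went from -2.04 to -1.26. Without the barcodes holding ependymal markers Ifit1 had -1.34. In the LPS astrocytes the list's median was 0.79.

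Markers of cells that the astrocyte class can take in also differed. For comparison, 0.659% of all astrocyte genes were at least 1.5-fold higher and 5.79% lower. Ependymal markers, of the ciliated cells lining the ventricles, summed to 821 CPM in APOE3 and 518 CPM in APOE4, and 4 of 7 were at least 1.5-fold lower. Tmem212 had 218 and 126 CPM and Ccdc153 163 and 89.0 CPM. At least 2 of them were detected in 4.57% of the APOE3 and 3.31% of the APOE4 astrocyte barcodes. Without these barcodes 278 genes were lower in place of 791, 227 of which were also among the 791, and the list's median log2 ratio was 0.00. Riiad1, the first of the genes lower in astrocytes alone, had 97.8 and 52.1 CPM (1.88-fold lower [1.74 to 2.03]) but a log2 ratio of -0.24 without those barcodes. Gfap had -1.44 and Serpina3n 1.78 without them. Rbpms, an RNA-binding protein (22.7 and 12.2 CPM), and Cd83, an immune surface protein (18.3 and 10.1 CPM, -0.26 without barcodes meeting more than 1 set), were next to Lsr among the genes lower in astrocytes alone. The log2 ratio of Rbpms went from -0.89 to -0.58, just short of 1.5-fold, without the barcodes holding ependymal markers. Of 4 markers of border macrophages 3 were lower, led by the mannose receptor Mrc1 (140 and 50 UMIs). Smooth muscle markers went the other way, with 4 of 5 at least 1.5-fold higher (44.9 and 83.7 CPM summed). They included Tpm2 (51 and 176 UMIs) and Myh11 (30 and 99 UMIs), and their median was -0.0048 without the Scrublet calls. The part of these cells in the astrocyte values beyond this was not tested.

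In microglia the identity genes were close. Over all microglial genes, 1.8% were at least 1.5-fold higher and 1.51% lower. None of 15 homeostatic genes was at least 1.5-fold apart, and P2ry12, the purinergic receptor of resting microglia, had 1469 and 1689 CPM (1.15-fold [1.13 to 1.17]). Among 11 cytokine and chemokine genes Tnf alone passed 1.5-fold, at 238 and 158 CPM (1.51-fold lower [1.44 to 1.58]). Its log2 ratio of -0.59 was just past the limit and was short of it without the Scrublet calls (-0.58), when centred on the class median (-0.57) and with every barcode counted equally (-0.51). Il1b had 98.0 and 127 CPM (1.3-fold higher [1.22 to 1.38]) and Ccl3 571 and 686 CPM (1.2-fold higher). Of 17 genes of disease-associated microglia only Spp1, the matrix protein osteopontin, was past 1.5-fold (12.5 and 25.0 CPM), and 1 barcode held 66.7% of its APOE4 UMIs. The immediate early genes Egr3 (8.29 and 18.1 CPM, 2.18-fold higher [1.81 to 2.64]) and Egr2 (1.5-fold higher) were 2 of 23 of their list past 1.5-fold. Interferon-stimulated genes had a median of 0.06, with 1 of 29 higher and 3 lower. Ifit2 (193 and 96 UMIs) and Ifit3 (188 and 107 UMIs) were lower, with log2 ratios of -0.21 and -0.17 without barcodes meeting more than 1 set.

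Markers of other cell types also differed in this class, in which 1.8% of all genes were higher past 1.5-fold and 1.51% lower. Choroid plexus markers were lower in 6 of 7 cases and summed to 6089 CPM in APOE3 and 4023 CPM in APOE4. The transporter gene Slc4a5 had 97 and 31 UMIs, the prolactin receptor gene Prlr 266 and 107, and Sostdc1 311 and 121. Without the Scrublet calls the list's median went from -0.79 to 0.06. Lyve1, a receptor of border macrophages, had 319 and 162 UMIs. Neuronal markers were higher for 3 of 8, led by the non-coding Meg3 (17.0 and 44.9 CPM). The log2 ratio of Meg3 was 1.40 as analysed, 0.58 without barcodes meeting more than 1 set and 2.17 without the Scrublet calls. The genes named as higher in microglia alone were at their highest level in another class. Snhg11, a gene of the neuron set of the class rule, had 10.2 and 25.5 CPM (2.5-fold [2.12 to 2.96]; log2 1.32, or 2.04 without the Scrublet calls), and the sodium channel gene Scn2a, Sntg1 and C1qtnf4 followed. All 4 stood at no more than 2.65% of the class with the highest level. Whether RNA of neurons in these droplets took part was not tested. Lower in microglia alone were Itih3 (22.7 and 13.8 CPM), Acer2, Sorcs2 and Rangrf. With every barcode counted equally their log2 ratios were -0.39, -0.51, -0.55 and -0.55, each short of 1.5-fold. That of Rangrf went from -0.60 to -0.39 without barcodes meeting more than 1 set.

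Oligodendrocytes had no myelin gene past 1.5-fold (0 of 13, median log2 0.08). Of 8 genes that differ between oligodendrocyte subtypes or states, 3 were past 1.5-fold higher and 0 lower, against 1.01% and 1.82% of all genes of the class, and the list's median was -0.03. S100b, a calcium-binding protein, had 397 and 667 CPM (1.68-fold higher [1.63 to 1.74]). Klk6, a protease of a subset of oligodendrocytes, had 122 and 195 CPM (1.60-fold higher [1.51 to 1.7]). The complement gene C4b had 82.9 and 58.2 CPM (1.42-fold lower). Pdk4, a kinase that restrains pyruvate oxidation, had 12 and 26.0 CPM (2.17-fold higher [1.82 to 2.59]). The immediate early gene Fosb had 34.2 and 15.2 CPM (2.25-fold lower [1.94 to 2.62]) and Gadd45b 25.8 and 13.2 CPM (1.96-fold lower [1.66 to 2.31]), although their list had a median of only -0.10. Genes differing in oligodendrocytes alone included Cdkn1c, a cell cycle inhibitor (24.8 and 40.3 CPM, 1.63-fold higher [1.43 to 1.85]), and Uchl1, a ubiquitin hydrolase (41.5 and 66.1 CPM, 1.59-fold higher [1.44 to 1.76]). The glutamate transporter gene Slc1a1 (42 and 94 UMIs) and Klhl23 were also higher there alone. Gm10801 (117 and 51 UMIs), Fgf13, Kcnip3 and Parp3 were lower there alone, although Fgf13 went from a log2 ratio of -0.84 to -0.52 without barcodes meeting more than 1 set.

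In endothelial cells the genes of the blood-brain barrier were close (0 of 14 past 1.5-fold, median log2 0.15). Of 4 genes of activated endothelium 2 were past 1.5-fold higher, against 0.826% of all endothelial genes. Vcam1, the adhesion molecule for leukocytes, had 63.3 and 120 CPM (1.9-fold [1.67 to 2.16]) over 139 and 90 barcodes. Lrg1, a marker of venous endothelium, had 95 and 84 UMIs (1.92-fold [1.41 to 2.6]), of which 1 barcode held 31.6% and 44.0%. All 21 immediate early genes lay above the median of the class, with a median log2 ratio of 0.37. Ier2 had 184 and 287 CPM (1.56-fold [1.44 to 1.69]) and Junb 232 and 352 CPM (1.51-fold [1.41 to 1.63]). Without the Scrublet calls their log2 ratios went from 0.64 to 0.57 and from 0.60 to 0.46, short of 1.5-fold. Immediate early genes are also known to respond to tissue dissociation, and that was not tested.

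The smooth muscle markers and most of the fibroblast matrix genes were lower in the same class, while 0 of 6 pericyte markers were past 1.5-fold (median log2 -0.24). Smooth muscle markers were lower in 5 of 5 cases, from 328 to 175 CPM summed. Of all endothelial genes, 0.826% were higher past 1.5-fold and 3.62% lower. Myh11 had 42.7 and 17.8 CPM (2.39-fold lower [1.84 to 3.15]), Tagln 75.3 and 31.7 CPM, and Acta2 74.6 and 37.8 CPM. Without the Scrublet calls the log2 ratio of Acta2 went from -0.98 to -2.08 and that of Tagln from -1.25 to -1.96. Of 8 fibroblast matrix genes 5 were lower, among them Ogn (16.7 and 7.86 CPM) and Igfbp4 (15.1 and 7.34 CPM). The log2 ratio of Ogn went from -1.08 to -0.58 without barcodes meeting more than 1 set. That of Igfbp4 went from -1.04 to -0.53 when every barcode counted equally. Astrocyte markers were lower for 3 of 12 (1753 and 1448 CPM summed), and microglial markers were higher for 2 of 9, with a median log2 ratio of 0.46 that was -0.29 without the Scrublet calls. Barcodes meeting more than 1 marker set were 15.5% of the APOE3 and 11.8% of the APOE4 endothelial barcodes. Genes higher in endothelial cells alone were Cep152, Dhodh, Sfxn4 and Elk1, at 57 to 73 UMIs in APOE3 and 46 to 55 in APOE4. Those lower there alone were Nxph1 (86 and 15 UMIs), Grid1 (107 and 23), Mrm2 and Snx33.

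In choroid plexus cells most long genes were lower and most short genes were not. Of 1352 measured genes with a body over 100 kb, 1056 (78.1%) were at least 1.5-fold lower, with a median log2 ratio of -0.92. Of 1719 genes under 10 kb, 173 (10.1%) were lower and the median was 0.10. Genes over 100 kb held 9.69% of the class's UMIs in APOE3 and 5.62% in APOE4. Malat1, an RNA kept in the nucleus, made up at least 0.1% of the UMIs in 32.1% of the APOE3 choroid barcodes (154) and 17.9% of the APOE4 ones (96), and these held 53.1% and 26.9% of the UMIs. Between 0.05% and 0.2% of Malat1, near the limit, lay 73 and 53 barcodes. Barcodes at 0.1% or more are called barcodes with Malat1 from here on. In each part taken alone the excess of lower genes was smaller. Lower were 811 of 5428 (14.9%) among barcodes with Malat1 and 674 of 4476 (15.1%) among those under 0.1%. Among barcodes meeting 1 marker set 2090 of 6258 (33.4%) were lower. What sets the amount of nuclear RNA in a droplet was not tested.

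**Figure D4:**
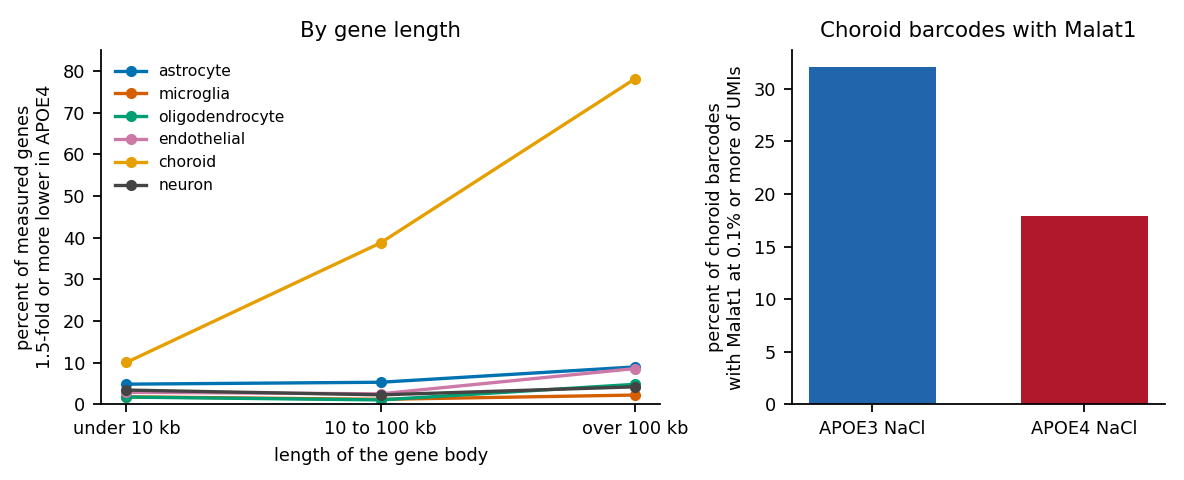
Left, percent of measured genes at least 1.5-fold lower in the APOE4 NaCl library by length of the gene body, for each class. Right, percent of choroid barcodes in which Malat1 made up at least 0.1% of UMIs, 32.1% in APOE3 and 17.9% in APOE4. The choroid class goes from 10.1% under 10 kb to 78.1% over 100 kb.

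Within this shift, the genes of oxidative phosphorylation stood high. All 89 measured lay above the class median, and their own median log2 ratio was 0.41, against 0.10 for all choroid genes under 10 kb. The part of gene length in this was not tested. Of the 89, 6 were at least 1.5-fold higher, against 1.04% of all choroid genes. Beside Cox8b and Ndufa3 these included Cox7a1 (114 and 188 CPM, 1.65-fold [1.49 to 1.83]) and the assembly factor gene Ndufaf1. Myelin genes were at least 1.5-fold higher for 6 of 10, again beside 1.04%, as Mobp with 19.1 and 42.3 CPM (2.22-fold [1.74 to 2.83]). They are genes of another cell type, and their median log2 ratio of 0.78 was 0.41 without barcodes meeting more than 1 set. Of 13 genes of choroid function 7 were lower, where 39.3% of all choroid genes were. The list's median log2 ratio was -0.72, but -0.30 when centred on the class median and -0.33 among barcodes with Malat1 at 0.1% or more. The ion cotransporter gene Slc12a2 had 617 and 279 CPM (2.21-fold lower [2.08 to 2.35]), the tight junction gene Cldn1 53.7 and 23.3 CPM, the channel gene Trpv4 87.3 and 48.8 CPM and the patterning factor gene Lmx1a 47.7 and 18.8 CPM. Of 15 circadian clock genes 12 were lower, again beside 39.3%, with a median of -0.92 that was -0.50 when centred and -0.35 among barcodes with Malat1. They include the nuclear receptor gene Rora with 311 and 130 CPM and Ciart with 17.4 and 4.47 CPM. Among barcodes with Malat1 at 0.1% or more the log2 ratio of Rora was -0.35 and that of Lmx1a -0.56. Slc7a5, an amino acid transporter better known from the blood-brain barrier, had 123 and 29 UMIs (4.35-fold lower [2.88 to 6.76]). The genes lower in choroid cells alone were headed by Erc1 (134 and 32 UMIs, 4.29-fold [2.9 to 6.52]), Arhgap31, Gpcpd1 and 4632427E13Rik, and the higher ones by Pard6a (43 and 83 UMIs), Comtd1, Tmem178b and Pak1. Among barcodes with Malat1 the log2 ratio of Erc1 went from -2.10 to -1.07, that of Gpcpd1 from -1.83 to -1.19 and that of 4632427E13Rik from -1.82 to -1. That of Tmem178b went from 0.77 to 1.87 and that of Pak1 from 0.76 to 1.73.

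Nearly all ribosomal protein genes stood low in the APOE4 neurons. Of 79 measured, 1 lay above the class median, and the median log2 ratio was -0.34. At least 1.5-fold lower were 3 of the 79, against 2.89% of all neuron genes. The 3 were Rpl23a (151 and 88.7 CPM), Rps12 (289 and 184 CPM) and Rps9 (311 and 207 CPM). Of 11 neuron markers 2 were past 1.5-fold lower and 0 higher, against 2.89% and 2.18% of all neuron genes. Slc17a6, the glutamate transporter of subcortical neurons, had 141 and 49.6 CPM (2.83-fold lower [2.41 to 3.33]), while Slc17a7, the one of cortical neurons, had 360 and 498 CPM (1.38-fold higher [1.29 to 1.49]). Gad2, an enzyme of GABA synthesis, had 285 and 184 CPM (1.55-fold lower [1.41 to 1.7]). Which neuron types each library held was not tested. Fos had 150 and 82.9 CPM (1.81-fold lower [1.58 to 2.07]). The lipocalin gene Apod had 22.5 and 53.9 CPM (2.40-fold higher [1.83 to 3.17]). Of the genes higher in neurons alone, Ccl4 had 12 and 97 UMIs, of which 49.5% in APOE4 came from 1 barcode. Arhgap15, a Rac regulator, had 75 and 289 UMIs (2.39-fold [1.85 to 3.13]), with a log2 ratio of 0.42 when every barcode counted equally, and Kctd4 and Limd2 followed. Plekhg1 (108 and 75 UMIs), Ccdc77, Jup and Vat1 were lower in neurons alone.

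**Figure D5:**
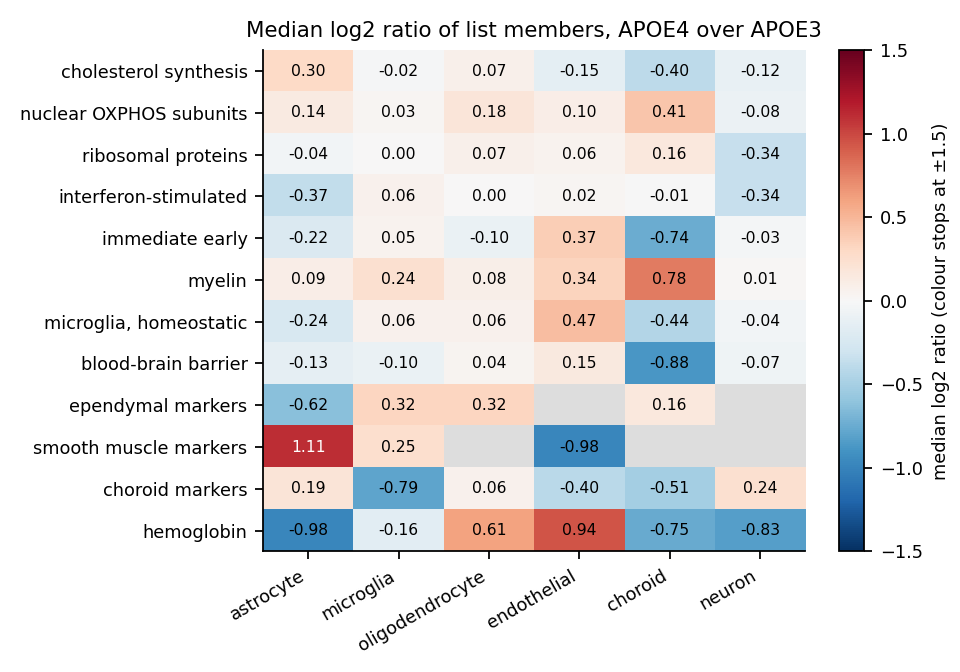
Median log2 ratio, APOE4 NaCl over APOE3 NaCl, of the measured genes of 12 lists (rows) in each cell class (columns), with grey where fewer than 3 genes were measured. Cholesterol synthesis reads 0.30 in astrocytes, ribosomal proteins -0.34 in neurons and hemoglobin goes from -0.98 in astrocytes to 0.94 in endothelial cells.

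Of 13033 genes measured in at least 2 classes, 150 were at least 1.5-fold higher in 1 class and at least 1.5-fold lower in another. In 55 of these 150, choroid cells, where 39.3% of all genes were lower, were the lower side. The first of the 150 by span were S100a9, S100a8, Ngp, Camp, Avp and Ccn3. The neutrophil gene S100a9 had 7 UMIs in APOE3 and 1452 in APOE4 astrocytes, and 1558 and 3 in endothelial cells. Of these, 84.4% of the APOE4 astrocyte UMIs and 99.6% of the APOE3 endothelial UMIs came from 1 barcode each. S100a8, Ngp and Camp followed the same pattern, with 83.7% to 100% of the larger count in 1 barcode. Avp, the vasopressin gene, was lower in 4 of the 5 classes in which it was measured (median log2 -2.85), choroid cells being the exception. It had 301 and 12 UMIs in microglia and 22 and 112 in choroid cells, with 99.1% of the latter in 1 barcode. In the LPS pair Avp was higher in 3 of 3 measured classes, by log2 6.23 to 13.2. Ccn3, a matrix protein, had 74 and 400 UMIs in microglia and 192 and 8 in endothelial cells.

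Hemoglobin genes, which come from red blood cells, also differed by class. In astrocytes 5 of 5 were at least 1.5-fold lower (2296 and 1121 CPM summed) and in neurons 4 of 4 (3326 and 1874 CPM). Over all genes, 5.79% were lower in astrocytes and 2.89% in neurons. In endothelial cells 4 of 4 were higher (1407 and 2679 CPM) and in oligodendrocytes 3 of 5 (2104 and 3219 CPM). The shares of all genes higher there were 0.826% and 1.01%. Microglia had 2712 and 2464 CPM. In choroid cells 3 of 4 were lower (1032 and 607 CPM), where 39.3% of all choroid genes were. These directions depended on the barcodes kept. The list's median log2 ratio in neurons, -0.83, was 4.91 without the Scrublet calls and 1.27 when every barcode counted equally. In choroid cells it went from -0.75 to 0.98 among barcodes with Malat1, and in oligodendrocytes from 0.61 to 0.26 without the Scrublet calls. Hbb-bs had 1247 and 590 CPM in astrocytes and 775 and 1401 CPM in endothelial cells.

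Across genes, the log2 ratios of pairs of classes were weakly related. Over the 15 pairs Pearson's r lay between -0.20 (astrocytes and endothelial cells, 7678 genes) and 0.57 (oligodendrocytes and choroid cells, 4599 genes), with a median of 0.23. The classes of a library share their preparation and free RNA, and genes are not independent replicates.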

How the data were processed

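The deposited matrices are raw UMI counts. The authors ran Cell Ranger on mm10 to get them, per the submitters' processing notes (version 7.0; the headers of the deposited matrices read 7.0.1). The gene annotation's version is not given in the sources used here. The deposited matrices hold barcodes with at least 500 UMIs. Gene positions came from GENCODE vM21 for 32158 of 32285 genes. Counts were summed per library and class, and compared as CPM with exact (Clopper-Pearson) intervals of the ratio. A count of 0 was set to a floor of 3 counts per class in ratios, which gives bounds. Doublets were called with Scrublet (scanpy 1.11.5) for the alternatives only. The genes named are up to 15 shared genes per direction, 4 per direction and class, 6 with opposite directions and 4 per list and class of 49 gene lists, by size of the ratio, with 8 fixed genes. Genes outside this rule are named as such, and some items are not reported here. The members, lists and rules were chosen with earlier results of these data known. The computation was tested on simulated counts. Python 3.11.15, numpy 2.4.6, scipy 1.17.1 and pandas 2.3.3 were used.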

Additional observations from a re-analysis of the deposited data

Results flagged for a closer look

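The following differences between classes, or between the NaCl and LPS pairs, went in opposite directions and were not tested. Within the NaCl pair, the log2 ratio of S100a9 was 7.90 in astrocytes and -7.90 in endothelial cells, that of S100a8 7.65 and -6.69, that of Ngp 6.60 and -5.76 (both bounds, since the lower count was 0), and that of Camp 4.65 and -6.11. In each of these, 1 barcode held at least 83.7% of the larger count. The log2 ratio of Avp was 2.31 in choroid cells and -4.52 in microglia, and that of Ccn3 was 2.56 in microglia and -3.47 in endothelial cells.

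Between the pairs, the median log2 ratio of Sox9 over the classes was -0.52 in the NaCl pair and 0.80 in the LPS pair. For AI506816 it was -0.75 and 0.48. For Avp it was -2.85 over 5 classes of the NaCl pair and 8.55 over 3 classes of the LPS pair. In astrocytes the log2 ratio of Gfap was -1.36 in the NaCl pair and 0.54 in the LPS pair. The LPS pair's APOE4 library had a median of 1292 UMIs per barcode, and 62.2% of its barcodes passed the filter.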

How the results depend on the processing

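No paired analysis was possible because each group is 1 library, and for the same reason no replicate could be left out. The alternatives that use Malat1, ependymal markers or no choroid cells were chosen after seeing the data. Nrgn and Gm47283 were shared genes under every alternative run with the same fold limits. Shared higher and lower genes, 8 and 22 as analysed, were 3 and 6 without barcodes meeting more than 1 marker set, 5 and 7 without Scrublet calls, 18 and 40 from 50 UMIs, 3 and 10 from 200 UMIs, and 3 and 8 with limits of 1.3, 1.5 and 2. Higher ones were 14 when centred on the class median and 5 as means over cells. Genes of a single class, 70 higher and 1591 lower, were 605 and 623 when centred, 125 and 503 among barcodes with Malat1, 28 and 1034 from 200 UMIs, and 20 and 713 with stricter limits. Higher ones were 131 as means over cells and 125 from 50 UMIs, and lower ones 210 without choroid cells. Genes with opposite directions, 150, were 342, 50 and 15 from 50 UMIs, from 200 UMIs and with stricter limits. The sum over classes of genes 1.5-fold apart, 5626, was 8762, 3227 and 1644 there, 3502 among barcodes with Malat1 and 2565 without choroid cells. The choroid share difference of 0.74 percentage points was -0.336 among barcodes with Malat1. The causes were not tested beyond the construction of each alternative.

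Of the 24 list medians followed, 7 turned direction under at least 1 alternative, as did 5 of the 146 ratios of a gene in 1 class. Among barcodes with Malat1, in choroid cells, Hbb-bs had a log2 ratio of 1.57, Hba-a1 and the hemoglobin median 0.98, and the immediate early median 0.0009. In neurons without Scrublet calls Hbb-bs had 4.58, Hba-a1 5.50 and the hemoglobin median 4.91, and as means over cells 1.23, 1.31 and 1.27. Without Scrublet calls the medians of microglial markers in endothelial cells, smooth muscle markers in astrocytes and choroid markers in microglia were -0.29, -0.0048 and 0.06. Without ependymal barcodes Foxj1 had 0.04 (0.0436) and the ependymal median 0.0022 in astrocytes. Of 360 values of the median ratio of the 30 shared genes under alternatives, 350 stayed within counting error and 0 reversed. This tally follows the median alone, so it cannot show whether a gene still met the shared rule, which sets a limit for each class. Without barcodes meeting more than 1 marker set, 2 of the 8 higher and 5 of the 22 lower genes still met that rule. Without Scrublet calls it was again 2 of the 8 and 5 of the 22. The number of barcodes, 58 and 47, kept fibroblasts out of the comparison.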
